A study of Mus musculus with 8 samples.

Results

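The 39 heat shock, chaperonin and co-chaperone genes followed here were chosen by family, with the called APOBEC2 peaks of all 6 lists already known. A peak was counted for a gene when it lay inside the gene or within 1 kb of its start or end in the mm10 gene table. They were compared with all 21887 protein-coding genes of chromosomes 1 to 19, X and Y. The data came from ChIP-seq with a polyclonal rabbit antibody against APOBEC2, a member of the AID/APOBEC family of cytidine deaminases, in C2C12, an established line of mouse myoblasts that differentiate when serum is lowered. The groups were 3 immunoprecipitated (IP) libraries labelled 34 h and 3 labelled 14 h after the change to 2% horse serum, and each time had 1 input. The growth protocol names 24 h in place of 14 h, so the earlier time is uncertain. The names of all 6 peak lists carry the tag GFPsh, which the sample labels do not explain. Neither a control antibody nor APOBEC2-deficient cells were part of the libraries analysed here, and a peak list holds no expression level against which the cell line could be checked.

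Chaperones bind unfolded or partly folded proteins and let them fold, often through cycles of ATP binding and hydrolysis. HSP70 proteins take their substrates from J proteins and release them with the help of nucleotide exchange factors, HSP90 acts later on selected clients such as kinases and steroid receptors, and the ring-shaped chaperonins (TRiC in the cytosol, HSP60 with HSP10 in mitochondria) enclose proteins in a chamber. Stress-inducible members are switched on by heat shock factor 1 at heat shock elements, and ER members by the unfolded protein response at ER stress elements. In muscle, chaperones are known for folding actin, tubulin and myosin and for the turnover of damaged sarcomere proteins.

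Promoters of 32 of the 39 genes matched RefSeq's table on GRCm38.p6 (the assembly of mm10), and 7 are shown from 250 bases before to 50 after the start. The first 6 had a region shared by at least 2 libraries of a time, and Hspa1a, the classical stress-inducible HSP70 gene, had no peak in any library. They are printed 5′ to 3′ on the gene's strand, with capitals for CCAAT, for the dyad GAANNTTC and tripartite form of the heat shock element, and for the ER stress element, all on either strand. Hspa14 is chr2:3512765-3513064 (minus strand), Hsp90b1 chr10:86705395-86705694 (minus), Hspe1 chr1:55087898-55088197 (plus), Hsph1 chr5:149636287-149636586 (minus), Cct7 chr6:85451255-85451554 (plus), Hsf2 chr10:57486135-57486434 (plus) and Hspa1a chr17:34972107-34972406 (minus).
Hspa14: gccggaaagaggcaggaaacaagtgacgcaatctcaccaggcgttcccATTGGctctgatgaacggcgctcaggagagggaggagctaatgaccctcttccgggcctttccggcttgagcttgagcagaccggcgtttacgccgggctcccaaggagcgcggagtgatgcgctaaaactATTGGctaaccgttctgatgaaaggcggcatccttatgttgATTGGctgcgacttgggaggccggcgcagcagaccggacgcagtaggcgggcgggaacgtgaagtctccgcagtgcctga
Hsp90b1: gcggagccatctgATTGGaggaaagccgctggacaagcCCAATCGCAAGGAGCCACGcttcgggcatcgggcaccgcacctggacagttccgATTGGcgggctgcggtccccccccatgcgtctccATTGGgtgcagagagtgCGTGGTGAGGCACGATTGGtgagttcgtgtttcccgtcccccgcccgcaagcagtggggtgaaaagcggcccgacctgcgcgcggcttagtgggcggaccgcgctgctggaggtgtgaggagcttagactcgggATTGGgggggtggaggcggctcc
Hspe1: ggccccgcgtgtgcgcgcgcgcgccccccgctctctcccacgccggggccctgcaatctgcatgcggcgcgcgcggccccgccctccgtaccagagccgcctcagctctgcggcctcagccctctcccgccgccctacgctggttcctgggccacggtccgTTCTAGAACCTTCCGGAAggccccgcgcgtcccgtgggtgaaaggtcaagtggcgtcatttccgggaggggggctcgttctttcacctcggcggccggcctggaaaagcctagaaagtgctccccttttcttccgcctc
Hsph1: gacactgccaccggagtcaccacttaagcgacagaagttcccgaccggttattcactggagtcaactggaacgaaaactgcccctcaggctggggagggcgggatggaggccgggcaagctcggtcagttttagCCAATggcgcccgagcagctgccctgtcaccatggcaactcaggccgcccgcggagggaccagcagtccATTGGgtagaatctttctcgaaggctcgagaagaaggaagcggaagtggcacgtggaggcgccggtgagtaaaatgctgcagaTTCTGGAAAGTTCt
Cct7: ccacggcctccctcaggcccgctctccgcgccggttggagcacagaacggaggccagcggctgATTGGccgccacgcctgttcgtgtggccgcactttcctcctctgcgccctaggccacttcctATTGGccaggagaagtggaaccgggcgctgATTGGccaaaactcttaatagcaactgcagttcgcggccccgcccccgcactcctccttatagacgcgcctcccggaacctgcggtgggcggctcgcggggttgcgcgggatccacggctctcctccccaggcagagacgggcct
Hsf2: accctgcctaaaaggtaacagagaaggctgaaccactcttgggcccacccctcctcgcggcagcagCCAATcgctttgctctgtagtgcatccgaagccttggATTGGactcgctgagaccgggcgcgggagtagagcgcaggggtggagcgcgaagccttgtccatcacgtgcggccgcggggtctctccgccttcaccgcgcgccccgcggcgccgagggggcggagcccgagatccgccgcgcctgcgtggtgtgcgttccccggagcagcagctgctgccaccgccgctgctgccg
Hspa1a: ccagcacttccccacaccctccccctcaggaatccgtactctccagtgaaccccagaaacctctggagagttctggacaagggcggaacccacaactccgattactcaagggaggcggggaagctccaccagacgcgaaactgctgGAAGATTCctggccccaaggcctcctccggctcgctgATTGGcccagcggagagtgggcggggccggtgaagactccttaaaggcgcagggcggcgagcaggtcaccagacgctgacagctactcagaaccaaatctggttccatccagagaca

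The peak lists held 2209, 5025 and 1068 peaks for replicates 1, 2 and 3 of 34 h and 768, 1327 and 797 for those of 14 h. Median summits stood on 19 to 24 DNA fragments, a number recovered from the caller's fold and p. The libraries of a time share an input. Whether the replicates are separate cultures is not stated, so their spread may be technical.

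At 34 h, 12 of the 39 members (30.8%) had a region found in at least 2 of the 3 libraries, where 8.79% of all protein-coding genes had one. At 14 h 3 of the 39 (7.69%) had such a region, against 4.27% of all genes. A region of all 3 libraries was present at 2 members at 34 h (Hspa13 and Hspa14), against 3.92% of all genes, and at 1 member at 14 h (Hspa14), against 2.94%. The members were chosen with peaks of these libraries known, so the counts are a description and were not tested. Of the 39, 25 (64.1%) had a peak in at least 1 of the 6 libraries, against 20.2% of all genes. A peak was found at both times for 7, at 34 h alone for 17 and at 14 h alone for Cct5, and 14 had none. In any library of 34 h 24 members (61.5%) had a peak, and in any of 14 h 8 (20.5%). Of all genes 19.1% and 6.96% had one, so genes with a 14 h peak were fewer there too.

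Replicate 2 of 34 h, the longest list, carried much of the count. A peak was present at 12, 22 and 4 of the 39 members in replicates 1, 2 and 3 of 34 h (30.8%, 56.4% and 10.3%), where 9.24%, 18.1% and 4.7% of all genes had one. At 14 h the counts were 1, 7 and 4 (2.56%, 17.9% and 10.3%), where 3.72%, 6.5% and 3.97% of all genes had one. The share of members lay above that of all genes in 5 of the 6 libraries and below it in replicate 1 of 14 h. All 12 members with a shared region at 34 h had a peak in replicate 2. Without that library 2 were left, Hspa13 and Hspa14 (all genes 3.92%), without replicate 1 there were 4 (4.48%), and without replicate 3 there were 10 (8.24%). With every list held to its 768 peaks of lowest p, 3 were left (Hspa13, Hspa14 and Hspa9), against 3.15% of all genes. At 14 h such lists left 2 members with a shared region (Hspa13 and Hspa14), against 3.75% of all genes.

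**Figure D1:**
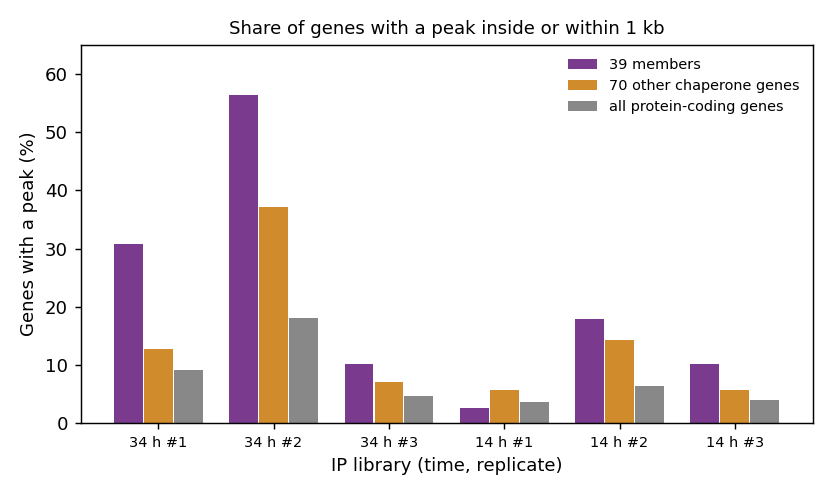
Bars give the percentage of genes with a peak inside the gene or within 1 kb of it (y axis) in each IP library (x axis), for the 39 members, 70 other chaperone genes and all 21887 protein-coding genes. The members' bar is highest in replicate 2 of 34 h (56.4%) and lies below that of all genes in replicate 1 of 14 h (2.56% against 3.72%).

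Among the HSP70 genes, Hspa14 was the 1 member with a region in all 6 libraries, where 2.26% of all genes had one. It encodes an HSP70-like protein of the ribosome-associated complex, which assists nascent chains. The region lay at its start (mm10 chromosome 2, 3512676 to 3513087). The fold over local background, the peak caller's own linear ratio, was 8.74, 9.14 and 4.85 in replicates 1, 2 and 3 of 34 h, and 9.22, 7.81 and 9.24 in those of 14 h. Replicate 3 of 34 h was the low one, and the other 5 libraries lay between 7.81 and 9.24. Its summit lay apart, at 3513043, whereas those of the other 5 lay between 3512810 and 3512908. Its peak began at 3512913, where that of replicate 3 of 14 h ended, so the region joins positions that differ. The mean of the 34 h libraries was 7.58 ± 2.37 and that of the 14 h libraries 8.76 ± 0.818 (SD, n = 3 each), and the libraries of the times overlapped. Summits stood on 27, 33 and 23 fragments at 34 h and 19, 18 and 20 at 14 h. The window of Cdnf, whose product is a trophic factor of the ER, held the same region.

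Hspa13, which encodes a microsomal HSP70 with an ATPase domain and no classical substrate-binding domain, had a peak in 5 of 6 libraries (chromosome 16, 75766621 to 75767327). Its highest fold was 6.21, 8.32 and 6.05 in replicates 1, 2 and 3 of 34 h, and 8.39 and 6.42 in replicates 2 and 3 of 14 h, with no peak in replicate 1 of 14 h. Replicate 2 was the highest library at either time, and the folds of the times overlapped. Replicate 3 of 34 h held an additional, separate peak there with a fold of 5.27. That peak overlapped those of 14 h, and the one of fold 6.05 did not. Summits of replicates 1 and 2 of 34 h lay at 75767114 and 75766911, against 75767223 and 75767234 at 14 h. The folds of the times therefore come partly from different positions.

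Hspa8 encodes the constitutive cytosolic HSC70, which also uncoats clathrin vesicles. Its peaks ended 34 to 238 bp outside the gene's lower boundary (chromosome 9, 40800836 to 40801242), with folds of 6.07 and 4.83 in replicates 2 and 3 of 34 h and 6.78 in replicate 2 of 14 h. The other 3 libraries had no peak there, so presence was split within both times.

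The ER chaperone gene Hspa5 (BiP, the main ER HSP70) had a peak in replicate 2 of 34 h only, with a fold of 5.77 on 19 fragments and its summit 20 bp upstream of the start. Hspa2, a testis-enriched HSP70 gene, had a fold of 4.83 and Hspa12a, a distant family member, 4.10, both in that library alone. The summit of the Hspa12a peak lay 20898 bp downstream of the nearest RefSeq start and 44336 bp from the nearest boundary of the gene, whereas every other member's peak lay within 1 kb of the start where a start is known. Hspa1a and Hspa1b, the stress-inducible pair, had no peak in any library. Their promoters differ at 4 of 300 positions, and how the aligner treated reads that match both is not given in the sources used here, so their lack of peaks is uncertain.

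**Figure D2:**
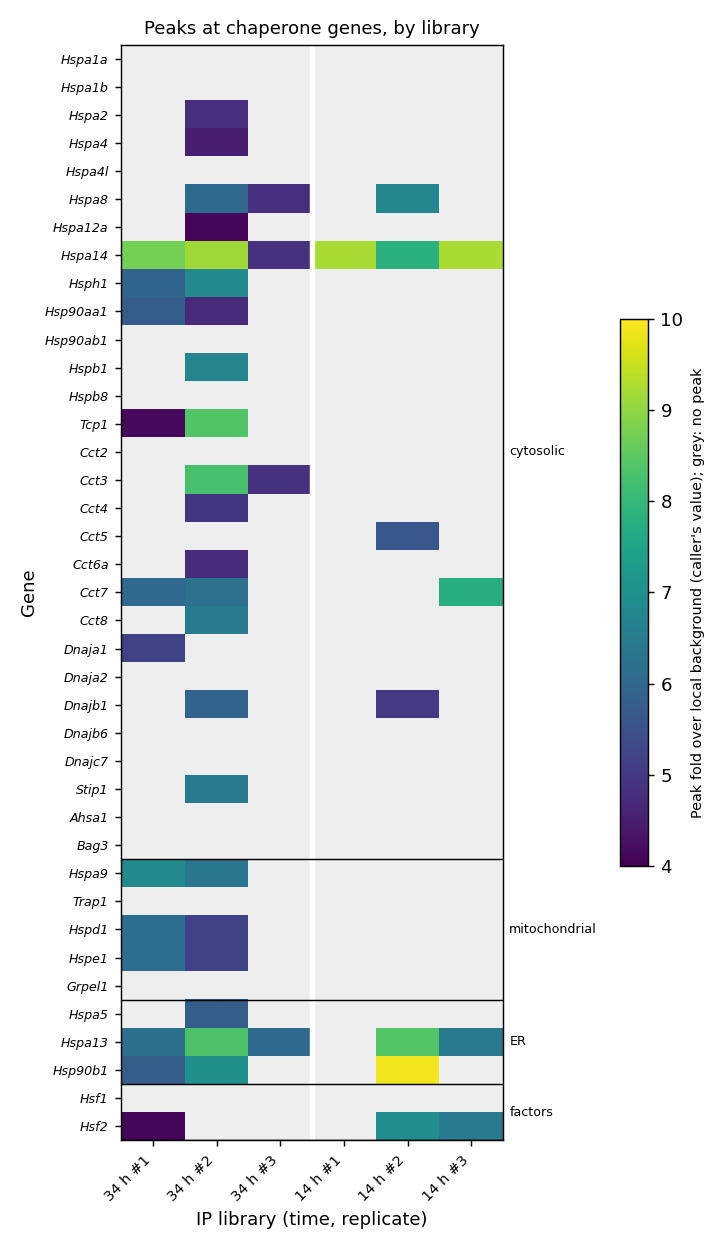
Colour gives the caller's fold over local background of the highest peak at each gene (rows, grouped as cytosolic, mitochondrial, ER and transcription factors) in each IP library (columns, 34 h left of 14 h), and grey marks no called peak. Hspa14 is filled in all 6 libraries, Hspa13 in 5, and 14 genes are grey throughout.

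Of the 4 HSP90 genes, Hsp90b1 (GRP94, the ER form) and Hsp90aa1 (the stress-inducible cytosolic form) had a shared region at 34 h, where 8.79% of all genes had one. Hsp90b1 had folds of 5.77 and 7.00 in replicates 1 and 2 of 34 h and of 9.90 in replicate 2 of 14 h, the highest of any member, over its start (chromosome 10, 86705337 to 86706141). Replicate 2 of 34 h held a further peak of fold 5.11 with its summit 536 bp upstream. The window of the neighbouring gene Ttc41 held these peaks too. Hsp90aa1 had folds of 5.78 and 4.73 in replicates 1 and 2 of 34 h (chromosome 12, 110696147 to 110696581) and no peak at 14 h. Its peaks overlapped, but their summits (110696531 and 110696218) lay on either side of the gene boundary at 110696395. Hsp90ab1, the constitutive cytosolic form, and Trap1, the mitochondrial form, had none in the window.

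The HSP110 proteins are nucleotide exchange factors of HSP70. Hsph1 had folds of 5.94 and 6.86 in replicates 1 and 2 of 34 h, on 20 and 28 fragments, and no peak at 14 h (chromosome 5, 149636243 to 149636623). Hspa4 had a fold of 4.51 in replicate 2 of 34 h alone, and Hspa4l had no peak in its window.

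Of the 8 subunits of TRiC, which folds actin and tubulin, 3 (Tcp1, Cct3 and Cct7) had a shared region at 34 h (8.79% of all genes) and 0 had one at 14 h (4.27% of all genes). Tcp1, the alpha subunit, had folds of 4.16 and 8.37 in replicates 1 and 2 of 34 h (chromosome 17, 12916094 to 12916516). Cct3, the gamma subunit, had folds of 8.25 and 4.86 in replicates 2 and 3 of 34 h (chromosome 3, 88296818 to 88297246). The 41 fragments of Cct3 in replicate 2 were the most at any member. Cct7, the eta subunit, had folds of 6.06 and 6.26 in replicates 1 and 2 of 34 h and 7.73 in replicate 3 of 14 h (chromosome 6, 85451107 to 85452033). For each of these subunits replicate 2 of 34 h held the higher fold of that time. Cct4, Cct6a and Cct8 had a peak in replicate 2 of 34 h alone, with folds of 4.97, 4.78 and 6.45. Cct5 had a fold of 5.63 in replicate 2 of 14 h alone, and Cct2 had no peak.

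Of the 5 mitochondrial members, 3 had a shared region at 34 h, all in replicates 1 and 2 (8.79% of all genes), and none had a peak in any 14 h library (6.96% of all genes). Hspd1 and Hspe1, which encode HSP60 and HSP10, are transcribed in opposite directions and overlap at their starts, so they share their peaks (chromosome 1, 55087983 to 55088319). The fold there was 6.17 and 5.18 in replicates 1 and 2 of 34 h, on 17 and 14 fragments. These peaks overlapped only at their edges, with summits at 55088223 and 55088066. Hspa9, which encodes mortalin, the HSP70 of the matrix that drives protein import, had folds of 6.84 and 6.35 in the same libraries, on 29 and 40 fragments, above its upper gene boundary (chromosome 18, 34954450 to 34954890). Trap1 and Grpel1, the nucleotide exchange factor of mortalin, had no peak.

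Among the 39 members, none of the 5 J proteins, 4 co-chaperones and 2 small heat shock proteins had a shared region at either time. Of all genes 8.79% had one at 34 h and 4.27% at 14 h, and families this small allow no contrast with these shares. Dnajb1, the J protein of the heat shock response, had a fold of 5.91 in replicate 2 of 34 h and 4.99 in replicate 2 of 14 h, on 30 and 31 fragments. Dnaja1 had a fold of 5.19 in replicate 1 of 34 h, and Dnaja2, Dnajb6 and Dnajc7 had no peak. Stip1, the adaptor that joins HSP70 to HSP90, had a fold of 6.48 in replicate 2 of 34 h on 32 fragments, and Ahsa1, which stimulates the ATPase of HSP90, had none. Hspb1, a small heat shock protein, had a fold of 6.72 in that library, whereas Hspb8 and its partner Bag3, which act together in the turnover of damaged filamin, had none.

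The heat shock factor genes themselves differed. Hsf1, the main regulator of the heat shock response, had no peak. Hsf2, a factor with roles in development, had a fold of 4.11 in replicate 1 of 34 h, and 6.93 and 6.45 in replicates 2 and 3 of 14 h (chromosome 10, 57486201 to 57486433). It was the 1 member with a shared region at 14 h and none at 34 h. Relative to the RefSeq start in the promoter table its summits lay at -65 bp in the 34 h library and at -70 and -121 bp in the 14 h libraries, 2498 to 2554 bp inside the outermost boundary of the gene.

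By compartment, a shared region at 34 h was present at 7 of 29 cytosolic, 3 of 5 mitochondrial and 2 of 3 ER members and at 0 of 2 transcription factor genes, with 8.79% of all genes as the background. At 14 h the counts were 1 (Hspa14), 0, 1 (Hspa13) and 1 (Hsf2), with a background of 4.27%. Since Hspd1 and Hspe1 share a region, the 12 members of 34 h correspond to 11 regions and the mitochondrial members to 2. In any library, a peak of 34 h was seen at 17 cytosolic, 3 mitochondrial and 3 ER members (all genes 19.1%), and a peak of 14 h at 5, 0 and 2 (all genes 6.96%). Per library, the ER members with a peak numbered 2, 3 and 1 at 34 h and 0, 2 and 1 at 14 h, and the mitochondrial members 3, 3 and 0 at 34 h and 0 in each library of 14 h. Without replicate 1 or without replicate 2 of 34 h no mitochondrial member kept a shared region, whereas 1 ER member did in both cases. Classes of 3 and 5 genes allow no firm contrast, and no difference between compartments was tested.

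The number of members with a peak averaged 12.7 ± 9.02 over the 34 h libraries and 4.00 ± 3.00 over the 14 h libraries (SD, n = 3 each), and the libraries of the times overlapped, with 12, 22 and 4 at 34 h against 1, 7 and 4 at 14 h. With every list held to 768 peaks the means were 3.00 at 34 h and 2.33 at 14 h, and 3.15% of all genes had a shared region at 34 h against 3.75% at 14 h, the reverse of the order with whole lists. Over all protein-coding genes the share with a peak was 10.7% ± 6.82 at 34 h and 4.73% ± 1.54 at 14 h. In the 7 members with a peak at both times, the highest fold of 34 h was below the lowest of 14 h for Hspa8, Hsp90b1, Cct7 and Hsf2. The reverse held for Dnajb1, and the folds of the times overlapped for Hspa13 and Hspa14. Median folds of whole lists were also lower at 34 h, at 5.92, 5.72 and 6.04 against 8.11, 8.00 and 8.48 at 14 h. No test between times was run, since the members were chosen with their peaks at both times known.

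Summits lay close to the starts of the members. Of 30 pairs of a 34 h peak and a member with a known start, 26 lay within 250 bp of it, and so did 8 of 9 pairs at 14 h. The pairs came from 19 members at 34 h and 6 at 14 h. A region called in several libraries counts once in each, so the pairs are not independent. Over all protein-coding genes in the promoter table, 63.9% of such pairs lay within 250 bp at 34 h and 73.1% at 14 h. Upstream of the start lay 26 of the 30 summits at 34 h and 8 of the 9 at 14 h, against 61.0% and 62.9% over all genes. The members' median distance from the start was 89.5 bp for 34 h peaks and 70.0 bp for those of 14 h, and that of all genes 131 bp and 93.0 bp. Of the 25 members with a peak, 10 shared it with the window of another protein-coding gene, 8 of them outside the pair of Hspd1 and Hspe1. The same share over all genes with a peak was not computed, so 10 of 25 is not shown to be particular to the members. The neighbours of these 8 were Cdnf for Hspa14, Ttc41 for Hsp90b1, Mrpl18 for Tcp1, Tsacc for Cct3, Atpsckmt for Cct5, Psph for Cct6a, Pradc1 for Cct7 and Aptx for Dnaja1. With genes whose window overlaps another's left out, which was chosen after seeing the data, 5 of 18 members had a shared region at 34 h (Hspa8, Hspa9, Hspa13, Hsph1 and Hsp90aa1), against 6.27% of such genes.

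**Figure D3:**
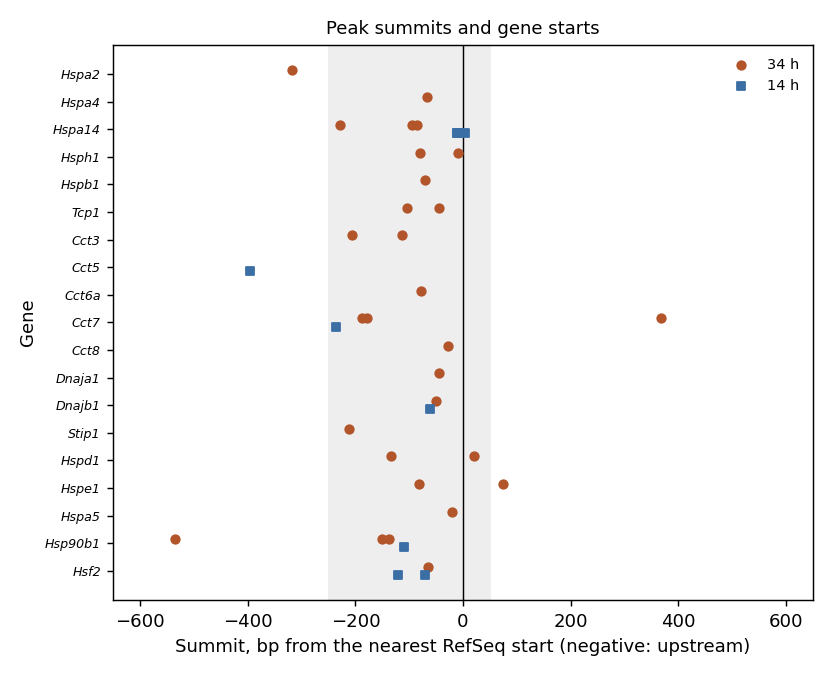
Each point is the summit of a called peak, placed by its distance in bp from the nearest RefSeq start of the gene (x axis, negative upstream), with 34 h as circles and 14 h as squares. The grey band is the promoter stretch of the table, 250 bases before to 50 after the start. Most points lie inside it, and the Hspa12a peak, 20898 bp downstream of the nearest start, is left out.

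The members' peaks were of middling or low rank within their lists. The 51 peaks, a shared one counted once, had folds from 4.10 to 9.90 and stood on 14 to 41 fragments. Ranked by p within each list, the median member peak lay at 48.8%, 46.0% and 82.6% of the list from the top in replicates 1, 2 and 3 of 34 h. At 14 h it lay at 46.2%, 61.3% and 74.8%. In replicate 2 of 34 h 6 of 23 were in the top 20%, led by Cct3 at 9.85% and Hspa14 at 11.4%. In replicate 3 of 34 h all 5 lay in the lower part, the best at 63.4%. A gene with no called peak is not shown to be unbound.

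**Figure D4:**
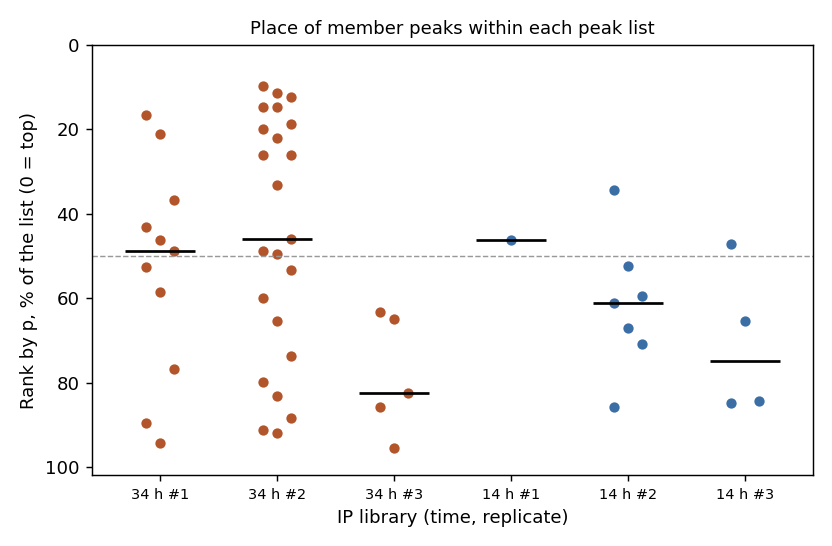
Each point is a member's peak, placed by its rank by p as a percentage of its list (y axis, 0 at the top) in each IP library (x axis, 34 h left of 14 h). Black lines are medians and the dashed line marks 50%. The highest ranks are in replicate 2 of 34 h, and all points of replicate 3 of 34 h lie under the dashed line, at 63.4% or more from the top.

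A search of 12 motifs on both strands described what the promoters share, over 42 promoters of 32 members. Hspa8, Hspa9, Hspa13, Hsp90aa1, Hsp90ab1, Cct4 and Hsf1 were not searched. The ER stress element, CCAAT and CCACG separated by 9 bases, occurred at Hsp90b1 and Hspa5, both ER members with a peak, that is in 4.76% of the members' promoters and 0.141% of all promoters of protein-coding genes. Hsp90b1 held 2 such elements, and both stand in capitals in its sequence above. A tripartite heat shock element, 3 units NGAAN side by side in alternating orientation, occurred at Hsph1, Hspe1, Hspd1 and Dnajb6. It was found in 14.3% of the members' promoters (6 of 42) and 0.517% of all promoters. Hsph1 and Dnajb6 each had overlapping promoters with the same element. Shares of promoters, here and below, count such promoters separately. Hsph1, Hspe1 and Hspd1 had a shared region at 34 h, the same one for Hspe1 and Hspd1, and Dnajb6 had no peak. The element of Hspe1 and Hspd1 lay upstream of the Hspe1 start (55088148), inside the replicate 2 peak of 34 h. The replicate 1 peak began at 55088150 and did not hold it. Over all genes the tripartite element occurred in 0.887% of promoters that a shared region of 34 h overlapped and 0.492% of the others. For the ER stress element these shares were 0.517% and 0.116%. Of the 1353 promoters with a shared region, only 12 held the tripartite element and 7 the ER stress element. The members' own promoters are among them (Hsph1, Hspd1 and Hspe1, and Hsp90b1), so these shares are no independent background. Hspe1 and Hspd1 read the same element from opposite strands.

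Of the 32 members searched, 19 had a promoter that a peak of any library overlapped. The dyad GAANNTTC, which every tripartite element contains, occurred at 11 members, of which 5 had a peak in any library. Hspa1a, Hspa1b, Hspb8, Bag3, Cct2 and Dnajb6 held it and had no peak. It occurred in 31.0% of the members' promoters and 7.21% of all promoters, in 6.43% of the 1353 promoters that a shared region of 34 h overlapped and in 7.26% of the others. CCAAT occurred at 18 of the 32 members with a promoter sequence, of which 14 had a peak. This count is by gene, and at Dnaja1 CCAAT stood only in promoters that no peak overlapped. At 34 h CCAAT occurred at 7 of the 8 members with both a shared region and a sequence, the exception being Hspe1. It stood in 47.6% of the members' promoters and 38.2% of all promoters, in 60.8% of those that a shared region of 34 h overlapped and in 36.7% of the others. The printed Hspa14 and Cct7 promoters hold 3 copies each.

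Of the E2F forms, TTTCCCGC was found at none of the 32 members searched and TTTGGCGC at Cct3 alone, against 1.41% and 0.635% of all promoters and 6.87% and 2.73% of those with a shared region of 34 h. TTTGAA, a form of the cell cycle homology region, occurred at Cct2, Cct5 and Hspb8 (16.0% of all promoters), and none of these had a shared region. The NRF1 core CGCATGCG occurred at Cct5 (2.52% of all promoters) and the CRE sequence TGACGTCA at Trap1 (2.23%). The ETS sequence CCGGAAGT occurred at Ahsa1, Cct8, Dnaja1, Dnajc7 and Tcp1 (5.15% of all promoters), and the E box CAGCTG at Dnajb1, Hsf2, Hspa12a and Hsph1 (15.6%). GGGCGG, the SP1 core, occurred at 30 of the 32 members, in 88.1% of their promoters and 46.2% of all promoters. Median GC content was 63.0% in the 22 member promoters that a peak overlapped and 63.2% in the 20 that none overlapped. The medians were 56.3% for all promoters and 61.0% for those with a shared region of 34 h. A match of letters is a description and no sign of a bound factor.

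Just outside the window, the nearest peaks within 5 kb belonged to other genes. A peak of all 6 libraries lay 3757 to 3833 bp beyond the end of Hspa4l, at the start of Plk4, the kinase of centriole duplication. Its folds were 8.89, 11.3 and 6.05 in replicates 1, 2 and 3 of 34 h and 12.7, 19.3 and 16.7 in those of 14 h. A peak of fold 6.27 in replicate 2 of 34 h lay 3781 bp from Hsp90ab1, in the windows of Nfkbie and Slc35b2. Just inside, the farthest peak from a gene was that of Hsp90b1 at 353 bp.

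Another 70 genes of the chaperone system, listed by function, had a shared region for 10 (14.3%) at 34 h and 6 (8.57%) at 14 h. All genes had 8.79% and 4.27%. Pdia4, an ER disulfide isomerase, had a peak in all 6 libraries, with folds of 12.4, 11.8 and 6.44 in replicates 1, 2 and 3 of 34 h and 9.18, 15.2 and 6.47 in those of 14 h. Dnajb11, the ER J protein that serves BiP, had folds of 7.57, 10.6 and 7.46 in the 34 h libraries and 12.3 and 7.22 in replicates 2 and 3 of 14 h, and the window of Tbccd1 holds the same region. Dnajc9, a J protein that binds histones, had 5.62, 8.45 and 5.38 at 34 h and 8.42 and 9.90 in replicates 1 and 2 of 14 h. Fkbp5, a co-chaperone of HSP90 in steroid receptor complexes, had 9.13 and 8.17 in replicates 1 and 2 of 34 h and 10.7 and 11.4 in replicates 2 and 3 of 14 h. Pdia6, Canx, Calr, Dnajb4, Dnajb5 and Clpp completed the 10 genes of 34 h, with folds between 4.32 and 10.0 in that time. Bag4, an exchange factor of HSP70, and Ptges3, the HSP90 co-chaperone p23, had a shared region at 14 h alone. In single libraries, the 70 genes had a peak at 12.9%, 37.1% and 7.14% in replicates 1, 2 and 3 of 34 h and at 5.71%, 14.3% and 5.71% in those of 14 h.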

How the data were processed

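The submitters' processing notes name the aligner Subread, the peak caller MACS2 and the build mm10; no version or threshold is given in the sources used here. Per the names of the deposited lists, each IP library was called on its own, with the input of the same time as control. In the deposited peak lists the fold is a linear ratio at the summit, and significance is given as a −log10 p-value and a −log10 q-value. The deposited integer score was not used.

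Peaks were assigned to RefSeq genes (GRCm38.p6) by overlap of at least 1 bp with the gene widened by 1 kb. Peaks of a time that overlapped were merged, and a shared region held peaks of at least 2 of 3 libraries. Fragments at summits were solved from fold and p for 100% of peaks (tolerance 0.001 in −log10 p). The code was tested on simulated peaks (Python 3.11.15, pandas 2.3.3, scipy 1.17.1). The members, families and lists were chosen with earlier results of these data known, so no test was run. Every member was accounted for, and members with a shared region are given with the fold in every library, others in short. The settings varied were the significance minimum (−log10 q of 5), lists of equal length, other windows, summits in place of overlap, other numbers of libraries and leaving out each library. Fragments limit the precision of every fold.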

Additional observations from a re-analysis of the deposited data

How the results depend on the processing

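Counts of members with a shared region were recomputed under each alternative, and the share of all genes moved as well. At 34 h this share was 8.79% as reported, 7.44% at a −log10 q of at least 5 and 3.15% with lists of equal length. It was 3.92% with all 3 libraries and 19.1% with any library. At 14 h it was 4.27% as reported, 3.75% with lists of equal length and 4.96% with 5 kb flanks. It was 2.94% with all 3 libraries of 14 h and 6.96% with any. At 34 h the count of 12 was 9 at a −log10 q of at least 5 and 3 with lists of equal length. It was 2 with all 3 libraries required and 24 with any library. With genes of overlapping windows left out, a setting chosen after seeing the data, it was 5. Leaving out a library of 34 h gave 2 to 10. The 7 cytosolic members were 4 at a −log10 q of at least 5, 1 with lists of equal length, 1 with all 3 libraries and 17 with any library (1 to 5 without a library). With lists of equal length or with all 3 libraries, 1 of 29 cytosolic members (3.45%) lay near the share of all genes. The 3 mitochondrial members were 1 with lists of equal length and 0 with all 3 libraries (0 to 3 without a library), and the 2 ER members were 1 under both settings (1 to 2 without a library). The mean number of members with a peak per library was 3.00 with lists of equal length, against 12.7, and 8.00 to 17.0 without a library. At 14 h the count of 3 was 1 with all 3 libraries and 8 with any library (1 to 3 without a library: 1, Hspa14, without replicate 2 or 3). The cytosolic count of 1 was 2 with 5 kb flanks and 5 with any library, and the ER count of 1 was 0 with all 3 libraries and 2 with any library (0 to 1 without a library). The mean at 14 h was 2.33 with lists of equal length, against 4.00, and 2.50 to 5.50 without a library. With windows at gene starts, or with summits in place of overlap, each count of members with a shared region was as reported. The cause of these shifts was not tested beyond the fewer peaks or libraries that a setting leaves. No paired analysis was possible because no result comes from a test. Summits on 14 to 41 fragments limit every fold, and a gene without a peak may lie below the caller's threshold.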
